A study of Homo sapiens with 9 samples.

Results

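The 4 HOX gene clusters were described as sets of open chromatin regions in 22Rv1, a human prostate carcinoma line. A region is a merged interval of the peaks of 9 ATAC-seq libraries. ATAC-seq maps open chromatin as places where a transposase can insert, and a peak is an interval with more insertions than its surroundings. Members were all regions that touch a fixed window around HOXA (chr7:27120000-27290000), HOXB1 to HOXB9 (chr17:46600000-46720000), HOXC (chr12:54320000-54460000) or HOXD (chr2:176940000-177070000), in hg19. This gave 91 of 128994 regions, with 30 in HOXA, 19 in HOXB, 29 in HOXC and 13 in HOXD. Membership was set by position alone, but the set was chosen with earlier results of these data known.

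Every library came from cells edited to express the C1111S form of SF3B1, a protein of the spliceosome, so the vehicle group carries the edit too. The groups were DMSO at 0.1%, WX-02-23 at 20 µM and WX-02-43 at 20 µM, each for 3 h and each with 3 libraries. Both compounds are called stereoprobes in the labels, and the series concerns covalent molecules that act on FOXA1, a pioneer factor of prostate epithelium. The labels do not say whether the edited line is 1 clone, or whether replicates were separate cultures, so the spread between replicates may be technical. Each list held 81962 to 105132 peaks and covered 33.8 to 45.7 Mb. The median number of fragments stacked at a summit was 21 to 24 per list. That median covers called peaks only and does not measure depth. The commonest signal level around a peak, solved as described below, was 1.14, 1.09 and 1.23 fragments in DMSO replicates 1 to 3. It was 1.33, 1.0 and 1.1 with WX-02-23 and 1.22, 1.38 and 1.41 with WX-02-43, so even depth across the groups cannot be assumed. The prostate identity of the line was not checked here, because no gene positions of hg19 were used.

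HOX genes encode homeodomain transcription factors that give body segments and organs their positional identity. The genes of a cluster stand in the same order as the body positions they pattern, with low-numbered genes acting toward the head and high-numbered genes toward the tail end and the urogenital tract. In adult cells, part of a cluster is usually kept open and transcribed while the rest is packed away by Polycomb repression. HOXB13, the prostate member best known in cancer, lies outside the windows. All 37 genes listed for the clusters were found in the RefSeq table, which is built on GRCh38. It was used for names and order only. With rising coordinate the order ran from HOXA2 to HOXA13, from HOXB1 to HOXB9, from HOXC13 to HOXC4 and from HOXD13 to HOXD1. Regions were not assigned to single genes, and none of their sequences were used here.

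The clusters were open in many short intervals separated by closed stretches, meaning stretches where no library had a called peak, and most of the open intervals recurred. Of the 91 regions, 60 (65.9%) were held by all 9 libraries, meaning that every list had a peak there, and 8 were held by 1 library. Over the whole series 46.2% of regions were held by all 9 and 16.5% by 1. The share held by all 9 was 66.7% in HOXA, 68.4% in HOXB, 65.5% in HOXC and 61.5% in HOXD. Summits of the 60 shared regions lay within a median of 77.5 bp of one another across libraries, and within 100 bp in 37 of them. Cut into 10 kb bins, the windows had 56 bins, of which 37 contained a region held by all 9 libraries and 12 contained no region in any library.

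HOXC and HOXA were the most open of the windows, and HOXD the least. Peaks covered 8.41% of the HOXC window on average over the 9 libraries (range 6.96 to 9.67%), 8.01% of HOXA (7.25 to 8.87%), 5.21% of HOXB (4.46 to 5.69%) and 3.35% of HOXD (2.53 to 4.03%). HOXA and HOXC overlapped in this measure, whereas each of the other neighbours in the order was separated in all 9 libraries. Tiles of the same lengths, laid end to end along every chromosome, had a median of 0.97 to 1.01% covered. Only 0.128% of tiles were covered as much as HOXC, 0.144% as much as HOXA, 1.81% as much as HOXB and 7.92% as much as HOXD.

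**Figure D1:**
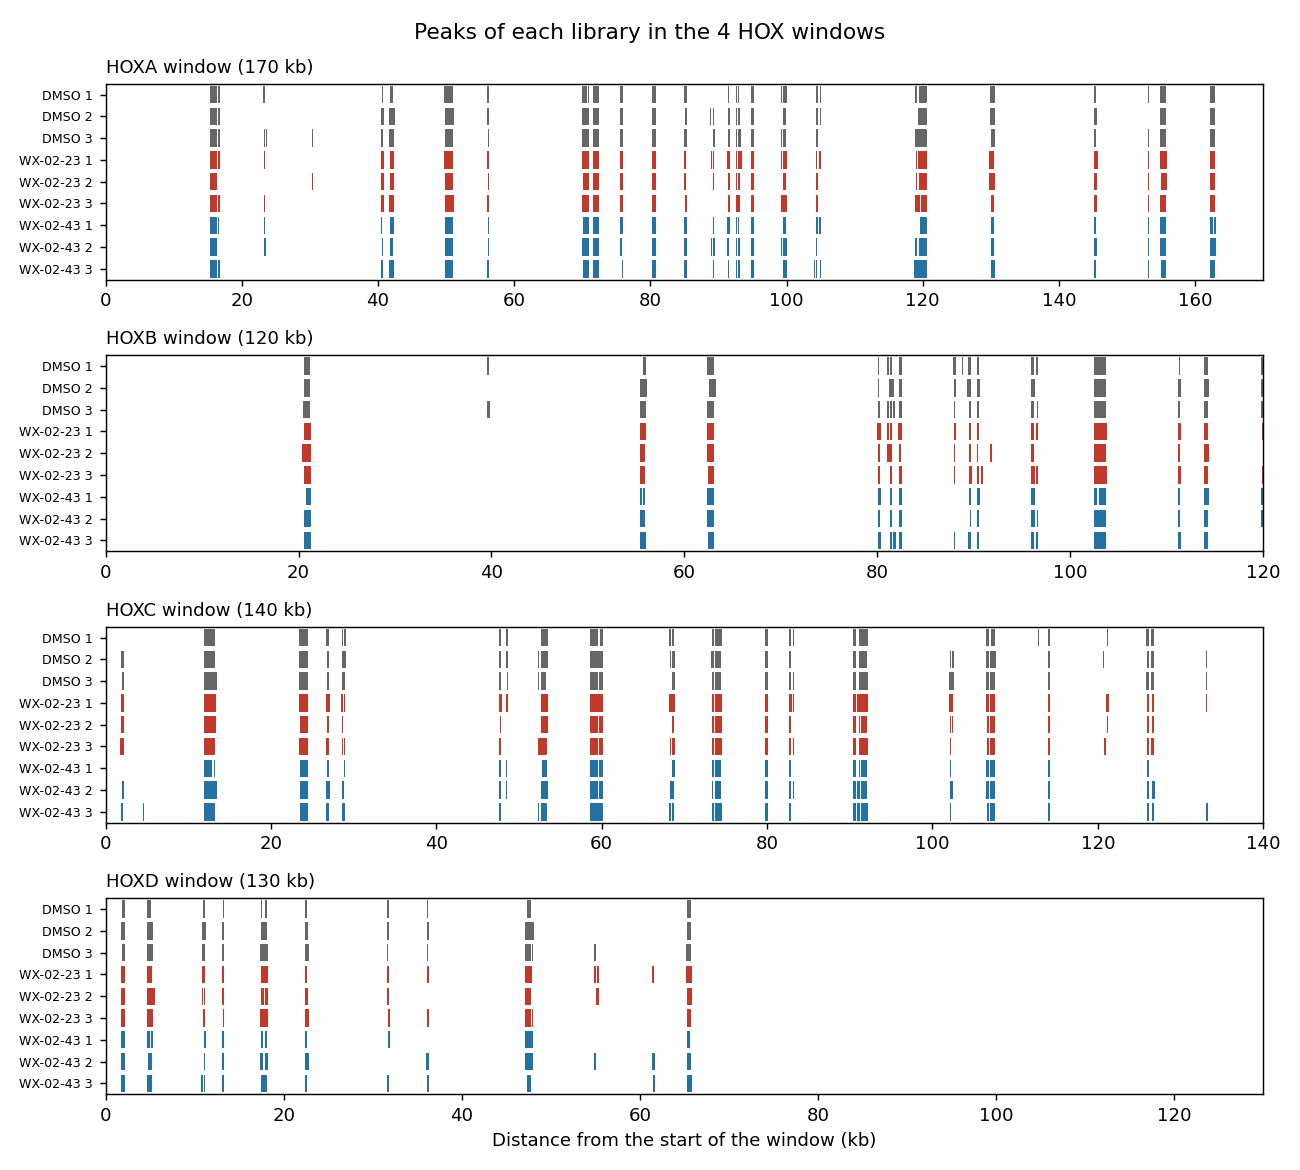
Peaks of each library (rows, coloured by treatment) along the HOXA, HOXB, HOXC and HOXD windows, with the distance from the start of each window in kb on the horizontal axis. Of the 91 regions plotted, 60 have a peak in all 9 libraries and 8 in 1 library, and the last 64.1 kb of the HOXD window have no peak in any library.

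In HOXA, the window began with 15.3 kb that had no peak in any library. The first shared region, chr7:27135317-27136376, was 1060 bp wide with a median fold enrichment over local background of 11.1. The strongest region of all 4 clusters by fold was chr7:27169763-27171107, 1345 bp wide. Its fold was 13.6, 14.3 and 14.7 in DMSO replicates 1 to 3, 14.2, 15.1 and 14.1 with WX-02-23, and 14.2, 14.3 and 13.0 with WX-02-43. The 3 groups overlapped there, and all summits fell within 36 bp. The widest region of the clusters, chr7:27238748-27240682, measured 1935 bp with a median fold of 8.37. It lay 118.7 kb into the window, which in the gene order is the side of HOXA13, a gene of limb tips and the urogenital tract. Beyond it came shared regions at chr7:27249786-27250651, chr7:27265129-27265688, chr7:27274828-27275870 and chr7:27282115-27283078, with median folds of 9.1, 8.6, 9.4 and 6.44. All 4 were named to complete that side of the window.

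The middle of HOXA held the densest stretch. Between chr7:27189997 and chr7:27225123, 15 regions stood within 35.1 kb with no gap over 5 kb, and 10 of them were held by all 9 libraries. Fold enrichment was low there, with region medians of 2.86 to 6.34. The fold, the authors' own value for each peak, divides the summit by the signal around it, and both parts could be solved from the deposited fold and p-value. In this stretch the local background was 8.18 to 17.5 fragments and the summit pileup 33 to 99 fragments. For the strongest region by fold, the background was 6.06 and the pileup 94 fragments. At chr7:27214795-27215210 the pileup was 99 fragments in the median library, and the fold only 6.34. Peaks of low fold in this stretch were thus no shorter than the median shared peak of the series, which stood at 33 fragments.

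Raised local background was found across the clusters except HOXD. Over the 60 shared regions its median was 6.09 fragments, against 2.67 over the 59637 regions of the whole series that all 9 libraries held. The background exceeded the upper quartile of all shared regions (5.19) in 35 of the 60 (58.3%). A background of at least 15 fragments occurred in 6 of the 60 (10%), all in HOXA, and in 1.55% of all shared regions. By cluster, the median background was 8.17 fragments in HOXA, 7.09 in HOXC, 5.86 in HOXB and 2.7 in HOXD. Summit pileups were slightly above those of the series, with a median of 39.5 against 33 fragments, while folds were lower, with a median of 6.25 against 8.8. Widths were similar, with medians of 557 and 621 bp.

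**Figure D2:**
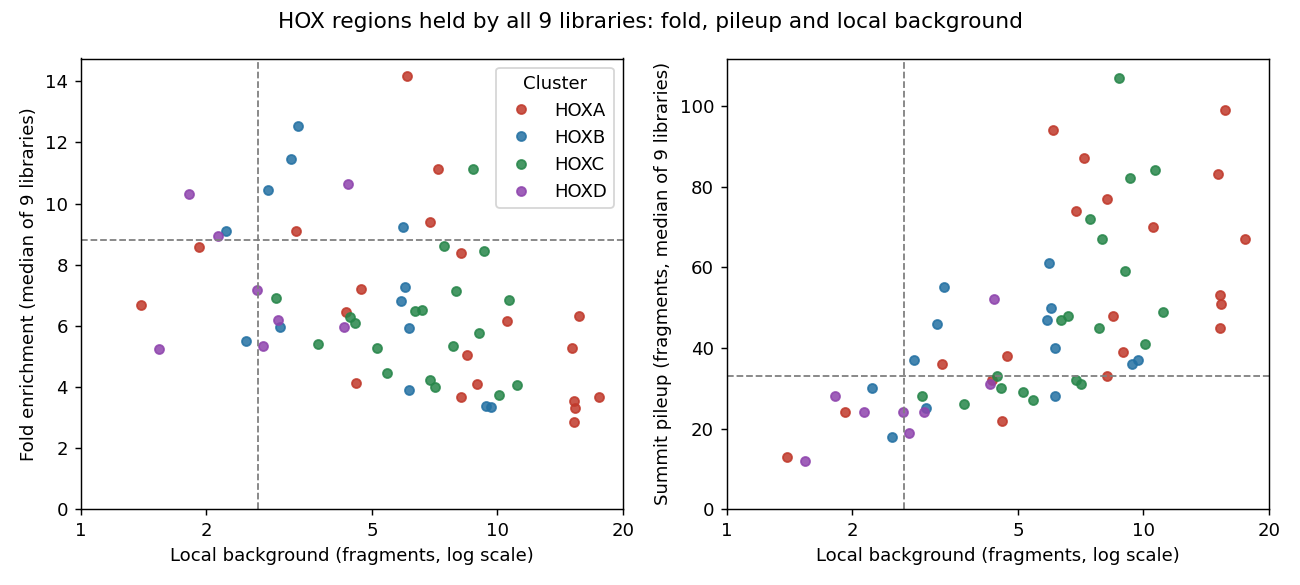
Each point is 1 of the 60 HOX regions held by all 9 libraries, coloured by cluster, with local background in fragments (log axis) against median fold enrichment on the left and median summit pileup in fragments on the right. Dashed lines give the medians over all 59637 shared regions (background 2.67, fold 8.8, pileup 33), and 52 of the 60 points lie to the right of the background line.

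HOXB split into sparse and dense parts. The first 20.4 kb of its window, the side of HOXB1 in the gene order, had no peak in any library. HOXB1 is a gene of hindbrain patterning. The next region, chr17:46620412-46621342, was held by all 9 libraries at a median fold of 10.4, and a second closed stretch of 18.2 kb followed. In that sparse part stood the cluster's highest fold, at chr17:46662379-46663302. Fold was 11.0, 13.8 and 14.1 in DMSO, 14.3, 13.5 and 11.8 with WX-02-23, and 11.7, 12.5 and 11.8 with WX-02-43, so the groups overlapped. After a further 16.7 kb without a peak, shared regions became frequent toward the HOXB9 side. Between chr17:46687891 and chr17:46696693, 8 regions stood within 8.8 kb, of which 3 were held by all 9 libraries and 3 by 1 library each. The widest HOXB region was chr17:46702437-46703812, at 1376 bp and a median fold of 9.22, followed in width by chr17:46681000-46681936, at 937 bp and 7.29. The last member, chr17:46719753-46720215, crossed the window's end with a median fold of 5.51, and the nearest regions outside lay 0.122 kb before the window (held by 4 libraries, median fold 5.59) and 3.96 kb after it (held by 9, median fold 5.09).

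HOXC had regions spread along most of its window, although peaks covered only 8.41% of its bases on average. Shared regions stood in 11 of its 14 bins of 10 kb, and 1 bin contained no region. HOXA was similar, with shared regions in 14 of 17 bins and 1 bin without a region. The longest closed stretch was 18.5 kb, from chr12:54349072 to chr12:54367523, toward the HOXC13 side of the order. HOXC13 is a gene of hair and nail formation. Before that stretch, the region chr12:54331905-54333418 was the tallest of the 4 clusters, with a median pileup of 107 fragments, a width of 1514 bp and a median fold of 11.1. Its fold ran from 10.6 to 11.6 over the 9 libraries, and the groups overlapped. After the stretch came chr12:54372270-54373537 and chr12:54410865-54412257, 1268 and 1393 bp wide, with median folds of 8.62 and 8.44. Toward the HOXC4 end, the last shared regions had low pileups, with medians of 26 and 28 fragments against 45 over HOXC. Their median folds, 5.41 and 6.91, lay on either side of the HOXC median of 6.1. The last region of the window, chr12:54453061-54453269, was held by 4 libraries.

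HOXD was open at one end and closed at the other. All 13 regions lay in the first 65.9 kb of the window, the HOXD13 side of the gene order, and the remaining 64.1 kb (49.3% of the window) had no peak in any library. The next region on that side began 63.8 kb beyond the window's end. HOXD13 is a gene of digits and the urogenital tract, and the table's order places HOXD1, a gene of the head side of the series, at the closed end. The last open region before the closed stretch was strong. At chr2:177005235-177005889 fold was 9.65, 10.3 and 11.2 in DMSO, 11.6, 8.98 and 11.9 with WX-02-23, and 11.3, 9.27 and 9.73 with WX-02-43, with overlapping groups. The widest HOXD region was chr2:176987075-176988113, at 1039 bp and a median fold of 8.93. Next in width were chr2:176957349-176958273 and chr2:176944672-176945501, at 925 and 830 bp with median folds of 6.19 and 5.97. Pileups in HOXD were lower than in the other clusters, with a median of 24 fragments against 37 to 49.5.

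The comparisons between treatments asked whether either stereoprobe moved these open regions within 3 h. Total openness did not differ detectably. Peaks covered 6.62 ± 0.51% of the 4 windows in DMSO, 6.63 ± 0.53% with WX-02-23 and 6.03 ± 0.46% with WX-02-43 (SD, n = 3 each). The exact permutation test over 280 partitions into 3 groups gave p = 0.35. WX-02-23 exceeded DMSO by 0.0108 percentage points, with a 90% interval from -0.879 to 1.15 (exact two-sided permutation p = 1, adjusted p = 1 over the 3 pairs, n = 3 each). That interval holds the shifts the exact test does not exclude. For WX-02-43 minus DMSO the value was -0.582 points and the interval -1.51 to 0.291, at an exact p of 0.3 and an adjusted p of 0.45. For WX-02-23 minus WX-02-43 they were 0.592 points and -0.196 to 1.68, at the same exact p of 0.3 and adjusted p of 0.45. No pair of 3 libraries against 3 can give a p below 0.1, so the intervals carry the information.

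The direction of the WX-02-23 and DMSO difference was not stable. It turned to -0.104 points when every list was shortened to the length of the shortest, to -0.273 without DMSO replicate 1 and to -0.273 without WX-02-23 replicate 1. The lowest total in each of DMSO and WX-02-43 was that of replicate 1, at 6.05 and 5.51%, and these were also the shortest lists. As a share of all bases that a library's peaks covered, the windows held 0.0941 ± 0.0043% in DMSO, 0.0913 ± 0.0039% with WX-02-23 and 0.0887 ± 0.0025% with WX-02-43 (exact permutation p = 0.293 over 280 partitions, n = 3 each).

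Each cluster gave the same picture. With WX-02-43, HOXA was covered to 7.58 ± 0.31% against 8.27 ± 0.55% in DMSO, at an exact p of 0.2, or 0.6 after adjustment over 12 comparisons (permutation test, n = 3 per group, SD given). HOXC was covered to 7.84 ± 0.77% against 8.72 ± 0.6% in DMSO, at an exact p of 0.3 and 0.6 after adjustment. HOXB was covered to 4.93 ± 0.47% against 5.43 ± 0.31%, at an exact p of 0.2 and 0.6 after adjustment. In HOXD, WX-02-23 reached 3.68 ± 0.3%, WX-02-43 3.09 ± 0.42% and DMSO 3.28 ± 0.65%, with exact p-values of 0.2 to 0.7, or 0.6 to 0.764 after adjustment. Single libraries of the groups overlapped in all 12 comparisons. The intervals for WX-02-23 minus WX-02-43 ran from -0.285 to 1.59 points in HOXA, -0.242 to 0.947 in HOXB, -0.672 to 2.71 in HOXC and -0.0108 to 1.37 in HOXD.

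**Figure D3:**
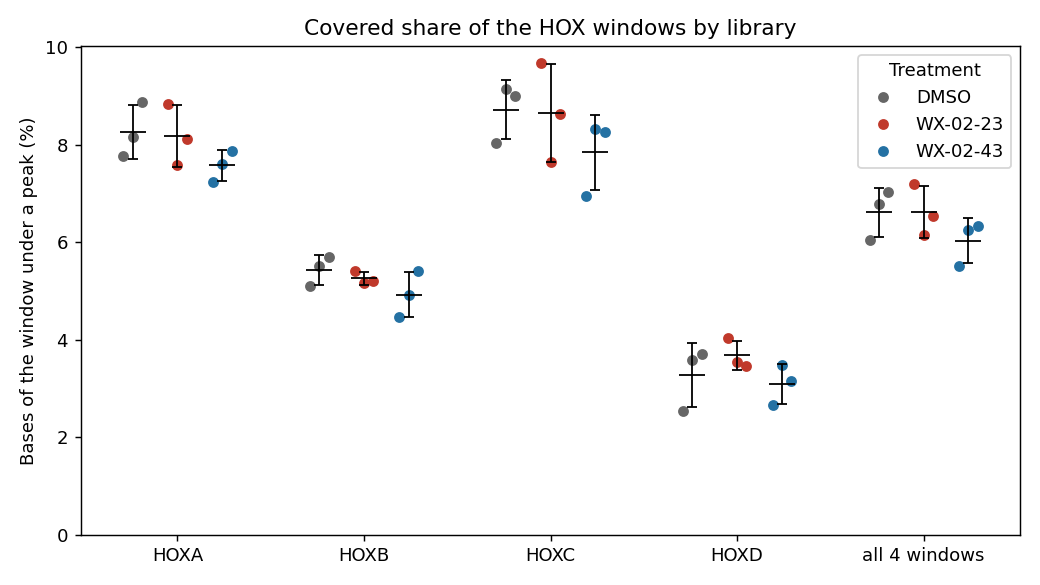
Percent of the bases of each window under a peak, 1 point per library coloured by treatment, with the group mean and SD as a bar (n = 3). HOXC and HOXA lie highest and HOXD lowest in every treatment, and the groups overlap in all windows.

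Peak presence hardly changed. Between WX-02-23 and DMSO, 0 of 91 HOX regions were held by every library of one group and by none of the other, where 1.77% of all regions were gained and 0.739% lost by that criterion. Between WX-02-43 and DMSO the count was also 0 of 91, against 0.331% gained and 0.366% lost over all regions. Between the stereoprobes, 1 of 91 was held by all WX-02-23 libraries and no WX-02-43 library (1.43% of all regions), and 0 by the opposite pattern (0.806%). With 91 members, shares of this size amount to 2 regions or fewer, so the counts cannot be set apart from those of the series.

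The 1 region was chr12:54440776-54441306, on the HOXC4 side of HOXC, 531 bp wide. Its fold was 4.7, 4.15 and 5.26 with WX-02-23 and 4.47 in DMSO replicate 1, with no peak in the other 5 libraries. Summit pileups were 18, 11 and 15 fragments with WX-02-23 and 13 in the DMSO library. The summits of these 4 peaks were up to 354 bp apart, against the median of 77.5 bp for shared regions. The region was no longer called at a stricter peak threshold (−log10 q of at least 5), in lists of equal length or when windows of 100 bp either side of summits were merged in place of whole peaks. The count was also 0 without WX-02-23 replicate 1, and 2 without replicate 3 of WX-02-23, or without either of replicates 1 and 3 of WX-02-43. Shares over all regions were not computed for these settings, so the counts cannot be set beside the series.

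Peak strength was compared within the 60 regions that all 9 libraries held. A fold belongs to its own library, so each fold was turned into its percentile among the 59637 shared regions of that library. The HOX regions ranked low, with a median percentile of 17.9 and 47 of 60 under 50, and 15 of them lay below 5, where there is little room for a rank to fall. WX-02-23 ranked above DMSO in all libraries in 2 of 60 regions (3.33%, against 8.0% of all shared regions) and below in 1 (1.67%, against 8.15%). WX-02-43 ranked above DMSO in 3 (5%, against 6.54%) and below in 4 (6.67%, against 5.96%). WX-02-23 ranked above WX-02-43 in 4 (6.67%, against 8.29%) and below in 3 (5%, against 9.66%). The first and second comparisons share the DMSO libraries, and the third shares its libraries with both. None of these shares was above its background by more than 1 region.

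Differences in fold were of about the same size in the HOX regions as in the series. On a log2 scale, after centring each library on its median, the difference between WX-02-23 and DMSO had a median of 0.00 over the 60 regions and ran from -0.24 to 0.26. For WX-02-43 against DMSO it ran from -0.43 to 0.43, again with a median of 0.00. Between the stereoprobes it ran from -0.28 to 0.29, with a median of 0.01. The size of the difference, without its sign, had a median of 0.07, 0.09 and 0.09 in these comparisons, against 0.10, 0.09 and 0.11 over all shared regions. The SD between replicates of a group had a median of 0.14 in the HOX regions and 0.14 in all shared regions.

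The regions behind these counts, named after their values were seen, mostly had low fold percentiles, as did the 60 HOX regions together (median 17.9). Low here refers to fold and not to summit pileup. In HOXA, chr7:27161587-27162457 ranked lower with both stereoprobes than in DMSO. Its fold was 7.27, 8.43 and 9.25 in DMSO, 8.05, 7.2 and 7.0 with WX-02-23, and 6.03, 5.39 and 7.11 with WX-02-43. In percentiles, DMSO stood at 35.9 to 46.4, WX-02-23 at 25.8 to 35.6 and WX-02-43 at 11.2 to 30.6, so the margin between DMSO and WX-02-23 was 35.9 against 35.6. Its neighbour chr7:27160409-27160929 ranked higher with WX-02-23 than in either other group, at percentiles of 4.54 to 5.18 against 1.94 to 3.24 in DMSO and 1.29 to 2.1 with WX-02-43. Fold there was 4.74, 4.64 and 4.64 with WX-02-23, 4.14, 3.95 and 4.43 in DMSO and 3.61, 3.6 and 3.88 with WX-02-43. These neighbours thus lay on opposite sides of DMSO with WX-02-23.

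In HOXB, chr17:46713839-46714359 was the other region that set WX-02-23 apart from both groups. Fold was 11.5, 12.2 and 12 with WX-02-23, 9.54, 11.4 and 11.8 in DMSO, and 8.95, 9.73 and 9.44 with WX-02-43. The percentiles were 73.8 to 81.2 with WX-02-23, 62.5 to 73.3 in DMSO and 57.6 to 63.3 with WX-02-43. The folds of WX-02-23 and DMSO overlapped before ranking, and those of the stereoprobes did not. The mean percentile of WX-02-23 stood 17.9 above that of WX-02-43 and 8.2 above that of DMSO. Also in HOXB, chr17:46655393-46656172 ranked lower with WX-02-43, at folds of 8.14, 8.73 and 8.78 against 9.85, 11.1 and 10.1 in DMSO. WX-02-23 spanned both there, at 9.12, 11.1 and 7.99.

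The largest rank difference of the 60 regions was at the HOXD13 side of HOXD. At chr2:176941679-176942230, fold was 9.13, 8.7 and 9.0 in DMSO, 10.6, 12.7 and 9.24 with WX-02-23, and 11.0, 12.3 and 10.8 with WX-02-43. WX-02-43 exceeded DMSO by 29.3 percentiles on average, without overlap. WX-02-23 exceeded DMSO by 18.8, with overlap in percentiles (52.7 to 85.2 against 44 to 58.2) and none in fold. Summits agreed within 4 bp over all 9 libraries. Pileups were 41, 39 and 52 fragments in DMSO, 66, 62 and 49 with WX-02-23 and 49, 65 and 63 with WX-02-43. Fragment numbers in DMSO thus overlapped those with either stereoprobe.

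The remaining called regions had differences of 10.1 percentiles or less. WX-02-23 ranked above WX-02-43 at chr7:27282115-27283078 and chr12:54393266-54393594, and below it at chr17:46682184-46682573, chr7:27200228-27200898 and chr2:176957349-176958273. WX-02-43 ranked below DMSO at chr12:54393266-54393594 and chr12:54402630-54402976, and above it at chr17:46680004-46680432 and chr7:27191565-27192461. At the last of these the percentiles of all 9 libraries lay between 0.922 and 1.71, a mean difference of 0.528 percentiles at the bottom of the scale.

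**Figure D4:**
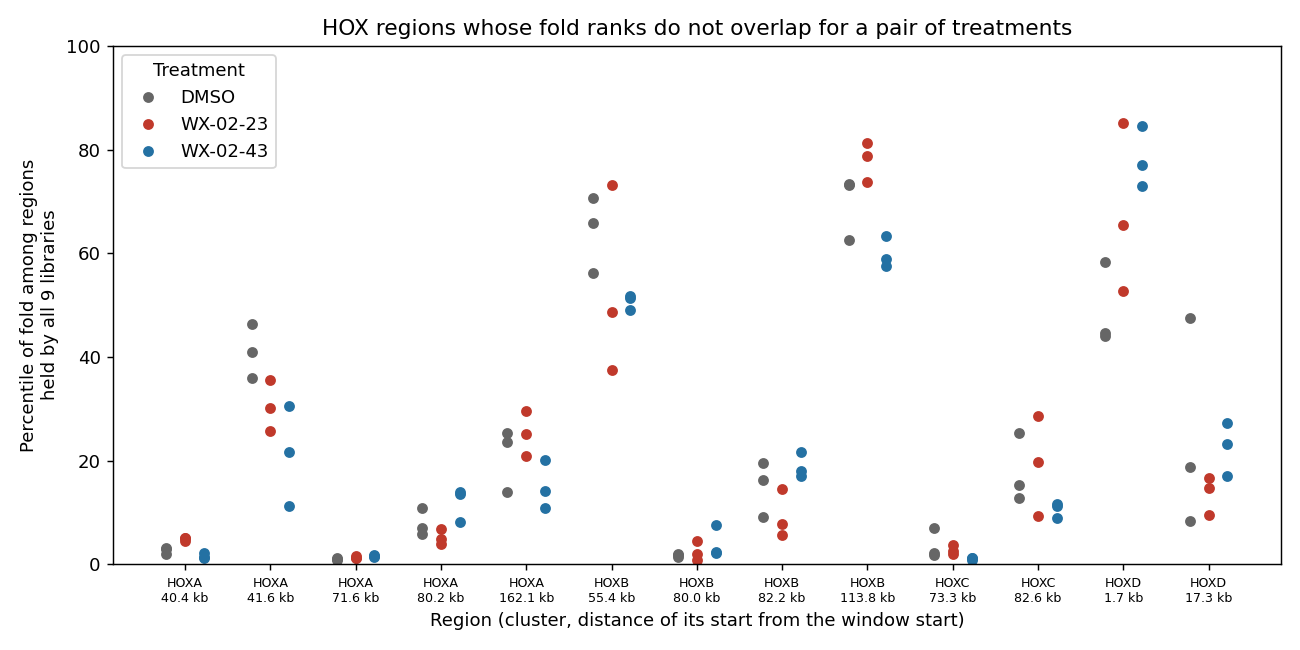
Percentile of fold among the 59637 shared regions for the 13 HOX regions where at least 1 pair of treatments did not overlap, 1 point per library coloured by treatment, labelled by cluster and distance from the window start in kb. Most sit below the percentile of 50, and the HOXD region at 1.7 kb shows the largest gap between DMSO and WX-02-43 (29.3 percentiles).

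Because the local background was raised in these clusters, summit pileups were ranked in the same way, a comparison added after the data were seen. WX-02-43 then ranked below DMSO in 11 of 60 regions (18.3%, against 7.26% of all shared regions) and above in 1 (1.67%, against 7.32%). The 11 comprised 5 in HOXC, 3 in HOXB and 3 in HOXA, and the 1 was chr2:176941679-176942230 in HOXD. That HOXD region also ranked above DMSO with WX-02-23, by 12.9 pileup percentiles on average, against 13.2 with WX-02-43. Mean pileup percentiles were lower with WX-02-43 than in DMSO in 44 of 60 regions (73.3%, against 50.4% of all shared regions), with a median difference of -1.52. In HOXC this held for 19 of 19 regions, with a median of -3.13. The other clusters were less one-sided, at 13 of 20 regions in HOXA (median -1.98), 8 of 13 in HOXB (-0.37) and 4 of 8 in HOXD (-0.379). The HOXC values were 15 of 19 and -2.15 for WX-02-23 against the same DMSO libraries, where 51.8% of all shared regions were lower. Over the 4 clusters, WX-02-23 was lower in 36 of 60 regions (60%), with a median difference of -1.51. Without each library of the WX-02-43 comparison in turn, 14 to 19 of 60 regions ranked lower, against 12 to 13.2% of all shared regions. In those settings, mean percentiles of 15 to 18 of 19 HOXC regions lay below DMSO, against 50.1 to 50.4% of all shared regions. WX-02-23 ranked below DMSO in 7 of 60 (11.7%, against 11.0%) and above in 3 (5%, against 10.7%). The 7 comprised 5 of 20 regions in HOXA and 2 of 13 in HOXB, and the 3 were 1 each in HOXA, HOXB and HOXD. Without each library of that comparison in turn, 5 to 7 of the 20 HOXA regions ranked lower, against 15.9 to 16.5% of all shared regions. WX-02-23 ranked above WX-02-43 in 4 (6.67%, against 10.0%) and below in 2 (3.33%, against 10.5%). Regions of a cluster lie side by side in the same libraries and are not independent of one another.

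Pileups are given for 3 of the 11 regions, named after their values were seen. At chr12:54426930-54427697 they were 47, 58 and 55 fragments in DMSO, 51, 42 and 49 with WX-02-23 and 33, 48 and 40 with WX-02-43. At chr12:54393266-54393594 they were 37, 32 and 36 in DMSO, 42, 27 and 31 with WX-02-23 and 27, 28 and 30 with WX-02-43. In both, the WX-02-43 values were the lowest on average and WX-02-23 overlapped both other groups. In HOXA, chr7:27161587-27162457 had 38, 47 and 55 fragments in DMSO and 30, 30 and 41 with WX-02-43. Fragment numbers of DMSO and WX-02-43 overlapped there and at chr12:54426930-54427697, and the percentiles did not.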

How the data were processed

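Libraries were prepared with a commercial kit, per the labels' protocols. The submitters' processing notes name Bowtie2, MACS2 and the build hg19. For versions, settings, any shift of read ends and duplicate removal, the status is "not given in the sources used here". The deposited lists, 1 per library, give a fold enrichment (a ratio), a −log10 p and a −log10 q per peak. The deposited score repeats −log10 q and was not used. Intervals on chromosomes 1 to 22 and X were merged at an overlap of 1 bp or more. Where a library had several peaks in a region, the one of highest fold was used.

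Pileup and background were solved from fold and −log10 p under a Poisson formula with a pseudocount of 1. A whole-number pileup matched within 0.002 for 100% of summits, against at most 1.44% with shuffled p-values. Pileups are in the units MACS2 stacked, reads or pairs.

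Coverage was compared by exact permutation tests, with Benjamini-Hochberg adjustment. Presence and rank calls carry no test. Regions were named by rule: per cluster the 3 widest and 3 of highest fold, the longest closed stretch, presence calls (at most 12 regions), and up to 10 regions where WX-02-23 stood apart from both groups. Other called regions were named after their values were seen. The members and lists were chosen with earlier results of these data known. Marker and cofactor genes planned for an hg19 annotation were not analysed here. Scripts (Python 3.11.15, numpy 2.4.6, pandas 2.3.3, scipy 1.17.1) were tested on simulated data.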

Additional observations from a re-analysis of the deposited data

How the results depend on the processing

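Without leaving out a library, 76 of 80 coverage values, 20 of 24 presence counts, 20 of 36 rank counts and 59 of 80 rank differences of named regions kept their direction and their side of the test, a value within 1.5 times or a value within the spread of replicates. The other 21 rank differences moved without changing sign. Differences by fold over the library's median are on another scale, so these were judged by direction alone. WX-02-23 minus DMSO changed sign in 4 values under 3 settings: to 0.0678 points in HOXB and 0.0588 in HOXC at −log10 q of at least 5, and over all windows to -0.104 in equal-length lists and -0.00284 as a share of the library's covered bases. The cause was not tested. At the stricter threshold and in equal-length lists and summit windows, 0 regions were held by every WX-02-23 and no WX-02-43 library. With at least 50% of a region covered, 1 was held by every DMSO and no WX-02-43 library. For presence counts under these settings, shares over all regions were not computed.

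WX-02-23 ranked above DMSO in 1 region in equal-length lists, 1 by fold over the library's median and 4 by −log10 q, against 7.73, 7.1 and 9.56% of all shared regions. It ranked below DMSO in 0, 0, 2 and 7 at the stricter threshold, by fold over the median, by −log10 q and by pileup, against 8.02, 8.62, 9.75 and 11.0%. WX-02-43 ranked below DMSO in 10 by −log10 q (16.7%, against 6.77% of all shared regions) and 11 by pileup (7.26%), and above it in 1 by pileup (7.32%). The cause was not tested.

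Replicate numbers showed no clear pairing of the libraries. Deviations from group means correlated between -0.12 and 0.136 over the 9 same-numbered pairs. Differently numbered pairs ran from -0.112 to 0.107. With a replicate block, ranks differed the same way in all 3 pairs, higher and lower, in 6 and 8 regions for WX-02-23 against DMSO, 7 and 11 for WX-02-43 against DMSO, and 7 and 7 between the stereoprobes, against 14.1 to 16.8% of all shared regions. The block changed no coverage call.

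Without each library in turn, WX-02-23 minus DMSO ran from -0.273 to 0.253 points over all windows, from -0.425 to 0.204 in HOXA and from -0.582 to 0.431 in HOXC, and WX-02-43 minus DMSO in HOXD from -0.556 to 0.0377. The sign turned without DMSO replicate 1 (-0.273) or WX-02-23 replicate 1 (-0.273) over all windows, without DMSO replicate 3 (0.204) or WX-02-23 replicate 2 (0.203) in HOXA, without WX-02-23 replicate 2 (0.431), DMSO replicate 2 (0.138) or DMSO replicate 3 (0.0639) in HOXC, and without DMSO replicate 3 (0.0354) or WX-02-43 replicate 1 (0.0377) in HOXD. Presence counts ran from 0 to 1, and from 0 to 2 for WX-02-23 over WX-02-43. Shares over all regions were not computed for these presence counts, so they cannot be set beside the series. Since fewer libraries must be separated, most rank counts rose. Against DMSO, WX-02-23 ranked higher in 2 to 7 regions (12.4 to 14.5% of all shared regions) and lower in 2 to 7 (12.5 to 13.6%). WX-02-43 ranked higher in 5 to 7 (10.8 to 15.3%) and lower in 8 to 11, which is 13.1 to 18.0% of the HOX regions tested against 10.1 to 11.8% of all. WX-02-23 ranked above WX-02-43 in 5 to 10 (13.1 to 13.8%) and below it in 3 to 8 (13.9 to 15.5%).

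Depth sets what can be called: a peak missing from a list is a signal under the authors' threshold and need not be closed chromatin.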
